A study of Mus musculus with 22 samples.

Results

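The genes described are 7 markers that have been used for reserve intestinal stem cells, namely Bmi1, Hopx, Tert, Lrig1, Msi1, Mex3a and Clu. They were chosen by name and by no threshold on measured values, though with earlier results of these data known, and all 7 were among the 24421 genes counted and had a count in each of the 22 libraries. The libraries were bulk RNA-seq of cells sorted from the colon crypts of mice, 3 of stem cells (Stem), 3 of absorptive progenitors (AbsPro), 5 of enterocytes, 5 of tuft cells, 2 of enteroendocrine cells (EEC) and 4 of a mixed secretory population (SecPDG). Per the study, SecPDG was mainly deep crypt secretory cells and secretory progenitors, with goblet cells as a possible small part. All mice were untreated wild type C57BL/6N males aged 5 to 7 weeks, and all cells were live, Epcam+, Cd31- and Cd45-. Stem cells were gated as Cd44highest, Cd24low and Ckit-, AbsPro as Cd44med/hi, Cd24low and Ckit-, and SecPDG as Cd44hi, Cd24med and Ckitmed, whereas tuft cells were Ckit+ and Cd24hi and enterocytes were Cd44low/- and Cd24-. EECs were Cd44low/- and Cd24+. Sorted cells of several mice were pooled where needed, to at least 2500 cells a sample. By the study's methods each Stem and AbsPro library came from 1 mouse, and each library of the other types from a pool of mice.

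Crypts are renewed by fast-cycling stem cells at their base, which carry Lgr5. A second pool, called reserve or facultative, was described from lineage tracing as cells that cycle slowly or rarely and that repopulate the crypt after injury. The genes used to mark such cells do not act in 1 pathway: Bmi1 is a Polycomb protein, Hopx a homeodomain-only protein, Tert the catalytic subunit of telomerase, Lrig1 a membrane protein that restrains ErbB receptors, Msi1 and Mex3a RNA-binding proteins and Clu a secreted chaperone. In bulk samples, fewer cells of a type and less RNA per cell cannot be told apart.

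The levels given are normalized counts, which are counts divided by the size of each library after TMM scaling and multiplied by the mean size, and ± is the SD over libraries. A gene was called where its mean over the 22 libraries reached 50 normalized counts and its adjusted p fell below 0.01, by edgeR's quasi-likelihood F test with Benjamini-Hochberg adjustment over the 22781 genes tested. Clu, with a mean of 49.7, could not be called under that rule. Besides the members, 13182 of the genes tested reached that mean. The shares of all genes called that are given below are over all 22781. They are thus lower than the shares among genes that could be called, and a member count set beside them looks larger for that reason. Depth ran from 4122122 counts on genes in EEC 1 to 22462518 in Stem 2. Reads on 1530 genes of families taken as not used by crypt cells, such as olfactory receptors, served as an estimate of background. Whether crypt cells use single genes of these families was not checked. They took 12.2 to 157 CPM (a library's counts scaled to a common total) in the Stem, AbsPro and SecPDG libraries, 182 to 1493 in tuft cells and 627 to 7147 in enterocytes and EECs, and the share that such background per kb would give a member is stated below where it is large. Tuft cells and EECs carried their own markers. The sum of 8 tuft cell markers was 23994 to 63823 normalized counts in tuft cells against 21.1 to 58.1 in Stem. That of 9 enteroendocrine markers was 597514 to 1715320 in EECs against 273 to 571 in Stem. Chgb and Chga gave 615552 and 462109 of the EEC mean of 1156420. Gcg and Pyy were not higher in EECs than in Stem, with means of 1.21 and 60.6 against 64.0 and 62.4. Both were highest in enterocytes, at 2677 and 558. The other markers of this list had higher means in EECs than in Stem. No list of stem cell or AbsPro markers was summed. The sum of 8 enterocyte markers was no higher in enterocytes, at 56851 to 86169.6, than in AbsPro, at 80869.5 to 123359. It was 23223 to 160847 in EECs and 14744 to 26818 in Stem. Car1 alone gave 67469 of the AbsPro mean of 97323 and 36464 of the enterocyte mean of 72624.5 for this sum. The means of Car4, Slc26a3, Aqp8, Krt20 and Cyp2c55 were higher in enterocytes than in AbsPro, and those of Car1, Guca2a and Slc37a2 lower. Markers of other cells moved with the cell types too. The 8 goblet cell markers had sums in Stem of 19418 to 32563, against 236035 to 692594 for enterocytes and 720518 to 1095440 for tuft cells. The 12 immune markers summed to 1571 to 3555, 482 to 1194 and 716 to 2959 in tuft cells, enterocytes and EECs against 158 to 203 in Stem. Ptprc alone gave 1671 of the tuft cell mean of 2171 for these immune markers. The tuft cell markers, besides, summed to 3690 to 8874 in EECs. The 8 stromal markers reached 2268 to 3384 in EECs and 737 to 1521 in enterocytes against 95.0 to 255 in Stem, and the 5 endothelial markers 818 to 1571 in EECs against 9.6 to 29.6. The part of such cells and of background in the results was not tested.

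Over the 6 cell types the test called 5 of the 7 members, Hopx (adjusted p = 2.26e-08), Tert (adjusted p = 4.11e-05), Lrig1 (adjusted p = 7.42e-10), Msi1 (adjusted p = 1.1e-12) and Mex3a (adjusted p = 1.61e-08), against a background of 33.6% of all genes tested. Bmi1 was not called (adjusted p = 0.0675), and Clu reached an adjusted p of 0.00278 under the minimum mean. The likelihood ratio test of DESeq2 called all 7, and it called 8899 of all genes where edgeR called 7656. The members did not share 1 order of cell types. Lrig1 and Mex3a were highest in stem cells, Hopx in SecPDG, Bmi1, Tert and Msi1 in EECs, and Clu in enterocytes.

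Set against stem cells, 2 of 7 members were called in AbsPro, where 0.588% of all genes were. SecPDG had 1 of 7 against 4.98%, tuft cells 0 of 7 against 12.1%, enterocytes 4 of 7 against 22.2% and EECs 2 of 7 against 19.9%. In tuft cells edgeR called no member. Tert, Lrig1 and Msi1 had an adjusted p under 0.05 there, as did 4486 of all 22781 genes tested, with the same minimum mean. DESeq2 called 1 member there, Lrig1, and 3835 of all genes. The median log2 fold change of the members was -0.91 in AbsPro and -1.78 in enterocytes, against -0.18 in SecPDG, 0.06 in tuft cells and 0.43 in EECs. Over all genes of at least 50 mean normalized counts the medians were 0.04 in AbsPro, -0.30 in enterocytes and in EECs, -0.06 in SecPDG and -0.09 in tuft cells. These medians moved with the scaling of the libraries. Under DESeq2, its size factors in edgeR, library totals and upper quartile factors, the median over all genes was higher than under TMM by 0.43 to 0.53 in enterocytes and by 0.30 to 0.66 in EECs, and 70.9% to 75.6% of all calls in enterocytes were higher than Stem in place of 48.3%, and 63.7% to 77.3% in EECs in place of 54.2%. In tuft cells the shift was 0.05 to 0.20. With library totals the median in SecPDG shifted by -0.23, and 44.1% of calls there were higher in place of 67.9%. Of the 9 calls against Stem, 8 were lower than in Stem and 1, Msi1 in EECs, was higher.

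**Figure D1:**
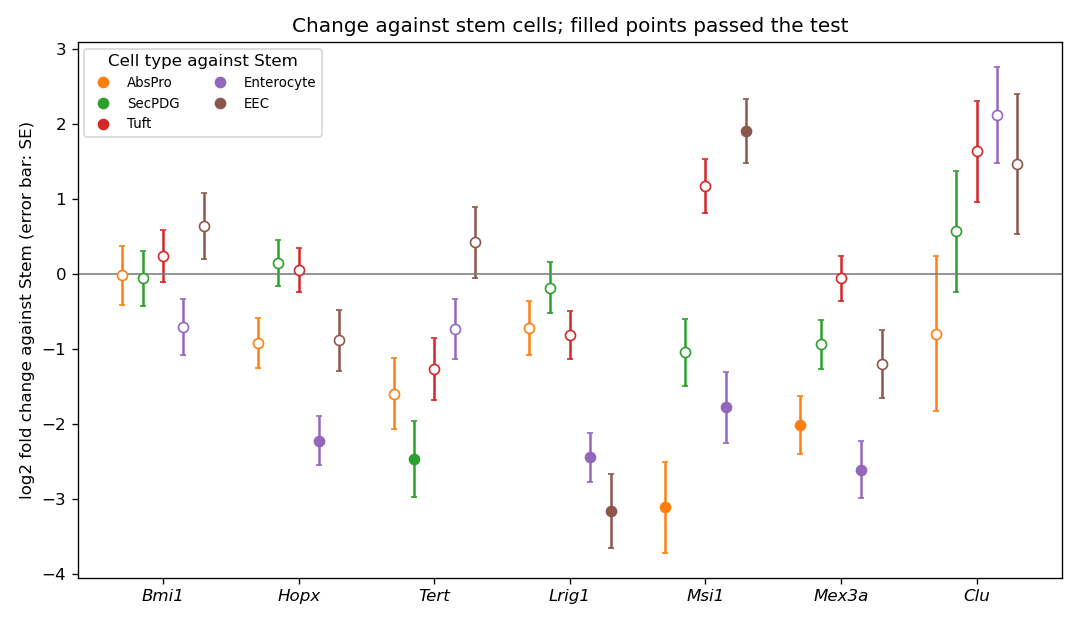
log2 fold change against Stem (y axis, error bars SE) of each member (x axis) in the 5 other cell types (colours), with filled points for genes that were called. The filled points lie below 0 except that of Msi1 in EECs at 1.91.

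**Figure D2:**
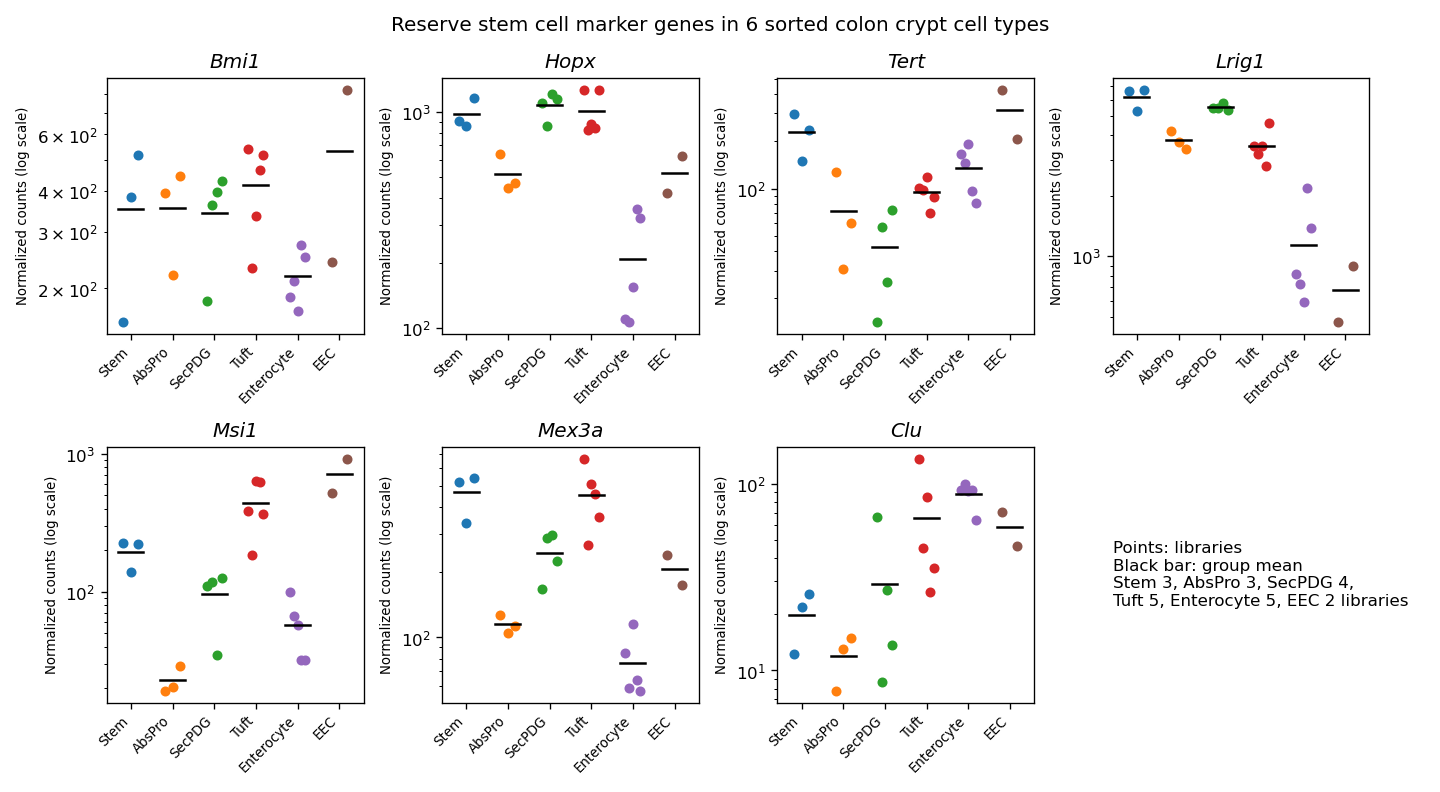
Normalized counts of the 7 members (y axis, log scale, 1 panel a gene) in each library of the 6 cell types (x axis), with points for libraries and black bars for group means. The Stem libraries of Lrig1 lie between 5300.3 and 6715 and those of enterocytes between 594 and 2198, whereas Msi1 has its lowest libraries in AbsPro and its highest in EECs.

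Bmi1, a subunit of Polycomb repressive complex 1 that silences genes such as the Cdkn2a locus, had overlapping levels in all cell types. Its libraries stood at 158, 384 and 519.5 normalized counts in Stem, 396, 219.6 and 446 in AbsPro and 182, 362, 399 and 431 in SecPDG. The same gene gave 542, 231, 336, 467 and 517 in tuft cells, 189, 211, 169.8, 273 and 251 in enterocytes and 242 and 824 in EECs. The 3 stem libraries differed among themselves by more than the group means did, and every other group overlapped with them. Means were 533 ± 411 in EECs, 419 ± 132 in tuft cells, 354 ± 119 in AbsPro, 354 ± 183 in Stem, 344 ± 111 in SecPDG and 219 ± 42.6 in enterocytes. No comparison of Bmi1 with Stem was called, with the lowest adjusted p in enterocytes (log2 fold change -0.70 ± 0.38 SE, adjusted p = 0.0983), where DESeq2 gave -0.12 (adjusted p = 0.789). In EECs the scaling decided the call, since edgeR with DESeq2 size factors called Bmi1 higher (log2 fold change 1.24, adjusted p = 0.00685) and DESeq2 gave 1.17 (adjusted p = 0.0143), against 0.64 (adjusted p = 0.228) under TMM. None of the neighbours in the order of its levels, EEC, tuft, AbsPro, Stem, SecPDG and enterocytes, differed by the test, which does not show that they were equal. The mean in EECs rests on EEC 2, since without it the log2 fold change against Stem was -0.56 in place of 0.64.

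Hopx, which lacks DNA binding of its own and acts through partner proteins, had overlapping levels in stem cells, SecPDG and tuft cells and was lowest in enterocytes. Its libraries lay at 913, 863 and 1158 in Stem, 1098, 864, 1216 and 1149 in SecPDG and 1263, 822, 881, 846 and 1259.8 in tuft cells. In AbsPro they were 641, 444 and 467, in EECs 419 and 626 and in enterocytes 109.8, 107, 155, 354 and 321. The AbsPro, EEC and enterocyte libraries all lay below every Stem library, while SecPDG and tuft cells overlapped with Stem. Hopx fell in enterocytes to 21.4% of its mean in Stem (log2 fold change -2.22 ± 0.33 SE, adjusted p = 4.13e-07, lower in 5 of 5 libraries). Reads outside genes, as a share of those on and outside genes, were 83.3%, 81.3% and 82.3% in Enterocyte 1, 2 and 3. In Enterocyte 4 and 5, where Hopx was higher, they were 67.2% and 69.2%, and their part in the size of the fall was not tested. In AbsPro (log2 fold change -0.91 ± 0.34 SE, adjusted p = 0.238) and in EECs (log2 fold change -0.88 ± 0.40 SE, adjusted p = 0.0652) the difference did not pass. The value in EECs was -0.19 under DESeq2 (adjusted p = 0.651) and -0.22 under DESeq2 size factors (adjusted p = 0.568). Of the neighbours in the order SecPDG, tuft, Stem, EEC, AbsPro and enterocytes, AbsPro and enterocytes differed by the test (adjusted p = 0.00243). The exons of Hopx overlap those of its antisense gene Hopxos, and the reads were counted without regard to strand, so reads of Hopxos, which has no entry of its own in the counts, could fall in those of Hopx.

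Tert, the reverse transcriptase of telomerase, was high in stem cells and EECs and lowest in SecPDG. The Stem libraries held 298, 150.4 and 235, those of EECs 423 and 207 and those of enterocytes 167, 146, 191, 95.8 and 80.3. Tuft cells gave 101, 97.2, 119, 70.2 and 87.8, AbsPro 126, 30.9 and 60.0 and SecPDG 14.2, 57.2, 25.3 and 72.5. All SecPDG, AbsPro and tuft libraries were below all Stem libraries, and enterocytes and EECs overlapped with Stem. The level fell in SecPDG (log2 fold change -2.47 ± 0.50 SE, adjusted p = 0.000363, lower in 4 of 4 libraries). That call depended on the form of the fit, with an adjusted p of 0.0156 in edgeR's default form and 0.0176 in its robust form. In AbsPro (log2 fold change -1.60 ± 0.47 SE, adjusted p = 0.0808) and tuft cells (log2 fold change -1.26 ± 0.42 SE, adjusted p = 0.0185) it was lower without passing. Among the other types Tert was higher in EECs than in AbsPro (adjusted p = 0.00259) and SecPDG (adjusted p = 7.3e-05), and higher in enterocytes than in SecPDG (adjusted p = 0.00538). The estimated background made up 19.5% of its level in enterocytes, 14.2% in tuft cells and 10.6% in EECs, against 0.506% in Stem. None of the direct neighbours in the order EEC, Stem, enterocytes, tuft, AbsPro and SecPDG differed by the test, and without EEC 1 the direction of EECs against Stem turned to -0.29 on the log2 scale.

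Over the 22 libraries Lrig1 had the highest mean of the members, and its own lowest levels were in enterocytes and EECs. Per kb of exon its mean level was 1114 normalized counts in Stem, against 645 for Hopx, 89.0 for Bmi1, 80.6 for Mex3a, 39.8 for Tert, 33.7 for Msi1 and 5.78 for Clu. It was not the highest in each cell type. Per kb, Hopx was above Lrig1 in tuft cells (669 against 633), and in EECs Hopx, Bmi1 and Msi1 were (345, 134 and 124 against 122). The libraries of Lrig1 were at 6656, 5300.3 and 6715 in Stem, 5462, 5451, 5761 and 5353 in SecPDG and 4221, 3692 and 3432 in AbsPro. Tuft cells had 3523, 3234, 3526, 2809.7 and 4597, enterocytes 819.6, 727, 594, 2198 and 1379 and EECs 472 and 894. SecPDG overlapped with Stem, whereas AbsPro, tuft, enterocyte and EEC libraries lay below every Stem library. The gene fell in enterocytes (log2 fold change -2.44 ± 0.33 SE, adjusted p = 6.05e-08, lower in 5 of 5 libraries) and in EECs (log2 fold change -3.16 ± 0.49 SE, adjusted p = 7.77e-07, lower in 2 of 2). Both calls kept their side of the threshold under every alternative run on them. As for Hopx, Enterocyte 4 and 5 lay above Enterocyte 1, 2 and 3. In tuft cells the level was lower at an adjusted p of 0.0444, and the replicate block called it (adjusted p = 0.00859), as did DESeq2 (adjusted p = 0.0055). In the order Stem, SecPDG, AbsPro, tuft, enterocytes and EEC, the step from tuft cells to enterocytes was the one between neighbours that passed (adjusted p = 4.28e-05). Exons of Lrig1 overlap those of Slc25a26 on the other strand, which has an entry of its own in the counts.

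Msi1, which represses the translation of mRNAs such as that of the Notch inhibitor Numb, had the widest range of group means, as a ratio, of the members. It was lowest in AbsPro, at 19.1, 20.3 and 29.1, and highest in EECs, at 517 and 919. Stem libraries held 226, 139 and 220.3, SecPDG 111, 117, 34.5 and 125, tuft cells 386, 186, 636, 630.3 and 364 and enterocytes 99.5, 66.5, 57.8, 31.9 and 31.8. AbsPro, SecPDG and enterocyte libraries were all below the Stem libraries, the EEC libraries were all above them, and tuft libraries overlapped with Stem. Msi1 fell in AbsPro (log2 fold change -3.11 ± 0.61 SE, adjusted p = 0.00146, lower in 3 of 3 libraries) and in enterocytes (log2 fold change -1.78 ± 0.48 SE, adjusted p = 0.00177, lower in 5 of 5), and rose in EECs (log2 fold change 1.91 ± 0.42 SE, adjusted p = 0.000248, higher in 2 of 2). Each of these 3 calls was lost under some alternatives. The call in AbsPro was lost without Stem 1, Stem 3 or any 1 AbsPro library (adjusted p of 0.0102 to 0.0213), the one in enterocytes under each scaling other than TMM, namely DESeq2 (adjusted p = 0.0591), DESeq2 size factors (adjusted p = 0.0267), upper quartile factors (adjusted p = 0.0223) and library totals (adjusted p = 0.0207), and in thinned libraries (adjusted p = 0.0134), and the one in EECs without EEC 2 (adjusted p = 0.0246) and under edgeR's default form (adjusted p = 0.0107). The level in tuft cells was higher at an adjusted p of 0.0112, past the threshold under DESeq2 size factors (adjusted p = 0.00306). Background was 46.7% of its level in enterocytes and 4.69% in EECs. Musashi proteins are also known from neural cells, and 8 markers of enteric glia and neurons, 0 of them at 0 in EECs, summed to 2195 to 4084 in EECs against 83.4 to 153 in Stem, with Ret at 2556 of the EEC mean of 3139. The tuft cell markers, given above, were also higher in EECs than in Stem. Against the other types, tuft cells exceeded AbsPro (log2 fold change 4.28 ± 0.54 SE, adjusted p = 1.31e-08), SecPDG (adjusted p = 5.53e-05) and enterocytes (adjusted p = 1.14e-07), while none of the neighbours in the order EEC, tuft, Stem, SecPDG, enterocytes and AbsPro differed by the test.

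Mex3a, an RNA-binding protein with a ubiquitin ligase domain, was high in stem and tuft cells. Its libraries were at 520.2, 338 and 539.7 in Stem and 663, 266, 508, 457 and 359 in tuft cells. SecPDG gave 167, 287, 295 and 225, EECs 240.4 and 174, AbsPro 126, 105 and 113 and enterocytes 84.9, 58.5, 116, 63.9 and 56.8. Tuft libraries overlapped with Stem, and the libraries of the other 4 types were below every Stem library. Mex3a fell in AbsPro (log2 fold change -2.01 ± 0.39 SE, adjusted p = 0.00121, lower in 3 of 3 libraries) and in enterocytes (log2 fold change -2.61 ± 0.38 SE, adjusted p = 3.22e-07, lower in 5 of 5). The call in AbsPro was lost without Stem 1, Stem 3 or AbsPro 3 (adjusted p of 0.0102 to 0.0119) and in edgeR's default form (adjusted p = 0.0114). In SecPDG (log2 fold change -0.94 ± 0.33 SE, adjusted p = 0.0739) and EECs (log2 fold change -1.20 ± 0.46 SE, adjusted p = 0.0272) it was lower without passing, and without Stem 2 EECs passed (adjusted p = 0.00794). Under DESeq2 the value in EECs was -0.31 (adjusted p = 0.632) and under DESeq2 size factors -0.53 (adjusted p = 0.352). Tuft cells exceeded AbsPro (adjusted p = 8.75e-05) and enterocytes (adjusted p = 1.8e-07), and SecPDG exceeded enterocytes (adjusted p = 0.000655). No neighbours in the order Stem, tuft, SecPDG, EEC, AbsPro and enterocytes differed by the test. Background was 35.3% of the level in enterocytes and 16.2% in EECs. The exons of Mex3a overlap the miRNA gene Mir1905 on the other strand.

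Clu, a secreted chaperone that marks revival stem cells after injury, had low counts in the uninjured crypts, 7 to 111 a library. Stem libraries held 12.2, 21.8 and 25.6 normalized counts, AbsPro 7.77, 13 and 15.0 and SecPDG 66.2, 8.7, 27.0 and 13.7. Tuft cells had 135, 45.4, 84.7, 26.5 and 35.1, enterocytes 92.2, 99.8, 91.3, 92.4 and 63.7 and EECs 70.5 and 46.1. The tuft, enterocyte and EEC libraries were all above the Stem libraries, and AbsPro and SecPDG overlapped with them. In enterocytes the adjusted p was under 0.01 (log2 fold change 2.12 ± 0.64 SE, adjusted p = 0.00458, higher in 5 of 5 libraries), with no call because of the minimum mean, and DESeq2 called it (adjusted p = 0.000347). Over all alternatives the adjusted p in enterocytes ranged from 0.000347 to 0.117. With the background taken off it was 0.0124, and background was 18.1% of the level of Clu in enterocytes and 34.2% in EECs. None of the neighbours in the order enterocytes, tuft, EEC, SecPDG, Stem and AbsPro differed by the test.

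**Figure D3:**
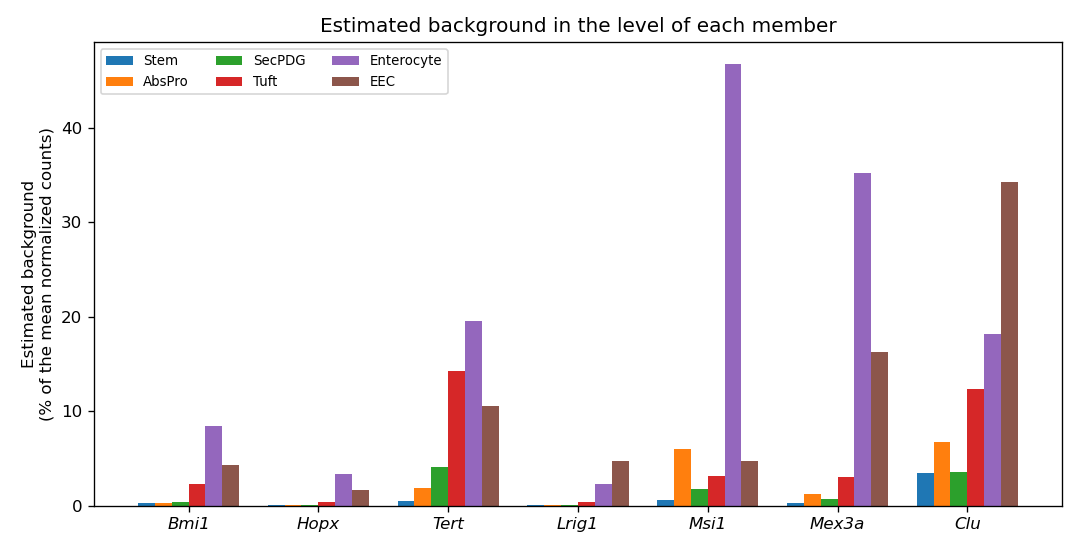
Estimated background as a percentage of the mean normalized counts of each member (y axis) in the 6 cell types (bars). It is under 7% of every member in Stem, AbsPro and SecPDG and reaches 46.7% for Msi1 and 35.3% for Mex3a in enterocytes.

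Between the cell types other than stem cells, 21 calls were made in 10 comparisons from the same fit. Tuft cells differed from enterocytes in 4 members against a background of 8.44%, with Hopx, Lrig1, Msi1 and Mex3a all higher in tuft cells. SecPDG and enterocytes differed in 4 against 23.4%, and Tert alone of these was higher in enterocytes. SecPDG and EECs differed in 3 against 21.3%, AbsPro and EECs in 3 against 18.3%, AbsPro and enterocytes in 2 against 16.2% and AbsPro and tuft cells in 2 against 8.13%. SecPDG and tuft cells differed in 1, Msi1, against 3.36%, tuft cells and EECs in 1, Lrig1, against 9.29%, and enterocytes and EECs in 1, Msi1, against 4.71%. AbsPro and SecPDG differed in 0 against 3.72%.

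The members also differed in how they moved together over the 22 libraries, which share cell type, depth and background, so that r is given as a description. The highest r of log2 CPM were those of Hopx with Lrig1 (0.805), Hopx with Mex3a (0.782) and Msi1 with Mex3a (0.684). Clu ran against Lrig1 (-0.614) and Hopx (-0.421), and Tert against Lrig1 (-0.466). Outside the members, the genes most like Lrig1 among 13182 candidates were Rcc2 (0.985), Nfix (0.981) and Ephb4 (0.980), and those most like Hopx were Tox (0.956), Wbp5 (0.944) and Cdk2 (0.929). For Bmi1 the highest values given are those of 9830147E19Rik (0.848) and Taf8 (0.841). Tert was most like Arnt2 and Ggnbp1 (0.866 each) and Tmem132c (0.854), Msi1 like Plxnb1 (0.899), Mvb12b (0.882) and Sik1 (0.874), Mex3a like Slc27a1 (0.885), Nav2 (0.877) and Stra6l (0.837), and Clu like Clec5a (0.862), Grik2 (0.850) and Cntnap5b (0.835).

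**Figure D4:**
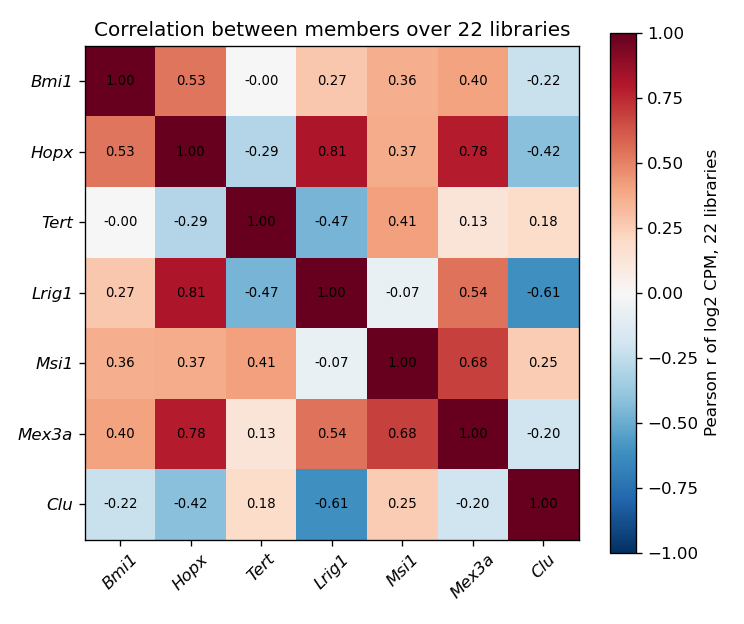
Pearson r of log2 CPM between each pair of members over 22 libraries (both axes are members, colour is r from -1 to 1). Hopx, Lrig1 and Mex3a have r of 0.543 to 0.805 with each other, and Clu is negative with all 3.

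Promoters from RefSeq (GRCm38.p6), running from 250 bases before a start site to 50 after it, were found for 5 of the 7 members, and motifs were searched in those of Bmi1, Hopx, Lrig1 and Mex3a. The search took the letters of the GC box (GGGCGG), the CCAAT box (CCAAT) and the TATA box (TATAAA) on both strands. Hopx, which has 2 listed start sites, and Lrig1 had the highest r with each other, so the stretch around their CCAAT box is shown, 5′ to 3′ on the minus strand that both genes lie on. Capitals mark the box, which reads ATTGG where it lies on the other strand. The stretches lie at chr5:77115294-77115322 and chr5:77095439-77095467 for the first and second start site of Hopx and at chr6:94700308-94700336 for Lrig1, which is 187, 188 and 179 bases before the start.
Hopx first: agcctttcattaATTGGgccttggtccag
Hopx second: gagtaaatatccATTGGtagtattgtttg
Lrig1: gcgctccaggagCCAATgagcaacgggca
The CCAAT box was present in 37.4% of all 32851 promoters of that length. Mex3a had 1 CCAAT box too, 34 bases after its start, and Bmi1 had 0. GC boxes numbered 6 in Bmi1, 2 in Lrig1, 1 in Mex3a and 0 in either promoter of Hopx, and 35.7% of all promoters held at least 1. No TATA box was found in these windows, whereas 13.6% of all promoters held one.

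Exon use was a readout that the choice of members did not use. The tables of skipped exons, made with rMATS, hold an event of Lrig1 at exon 3 of 19, chr6:94654847-94654921 on the minus strand of mm10, which is coding and has 75 bases, or 25 whole codons. It is the member exon with the most skipping counts in Stem. In Stem the inclusion counts of the exon were 37, 24 and 91 and the skipping counts were 14, 0 and 0, so that all skipping came from 1 place of the list, which the tables tie to no numbered library. Inclusion was 120 in AbsPro, 34 in enterocytes, 85 in SecPDG and 219 in tuft cells, summed over libraries, with a skipping count of 0 in each of these types. By edgeR on the paired counts, the adjusted p was 0.827 in AbsPro, 0.726 in enterocytes, 0.798 in SecPDG and 0.746 in tuft cells. That test called 0 of the exons in any of these tables (0% of all events), with 4 of 4293 events in AbsPro at an unadjusted p under 0.05, 103 of 4756 in enterocytes, 39 of 5283 in SecPDG and 66 of 5464 in tuft cells. In edgeR's default form, added after seeing the data, it also called 0, with 5, 144, 46 and 120 events at that unadjusted p. Each of these counts is below what unadjusted p-values would give by chance with no difference in any exon. The test was thus conservative here, and the adjusted p of Lrig1 cannot show that exon use was equal. With the test of rMATS itself, the study reported its largest number of splicing changes between Stem and AbsPro. Other exons of Lrig1 had at most 1 skipping count. An exon of Msi1 at chr5:115447130-115447186 had at most 33 inclusion and 7 skipping counts in a cell type and was not tested.

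The share of the distal polyadenylation site, estimated by DaPars, was listed for Hopx and Lrig1. Hopx (transcript NM_001159901) had shares of 0.43, 0.59 and 0.29 in Stem, 0.48, 0.15 and 0.47 in AbsPro, 0.42, 0.36, 0.32 and 0.44 in SecPDG and 0.35, 0.48, 0.33, 0.32 and 0.54 in tuft cells. Lrig1 (transcript NM_008377) had 0.14, 0.29 and 0.44 in Stem, 0.44, 0.42 and 0.26 in AbsPro, 0.47, 0.28, 0.21 and 0.35 in SecPDG and 0.61, 0.38, 0.25, 0.36 and 0.31 in tuft cells. The groups overlapped for both genes. By limma, no difference passed: the adjusted p for Hopx was 0.951 in AbsPro, 0.906 in SecPDG and 0.946 in tuft cells, and for Lrig1 it was 0.923, 0.938 and 0.842. Over all transcripts 0%, 0.0268% and 0.0736% were called in these tables, and 179 of 4484 in AbsPro had an unadjusted p under 0.05. Lrig1 in enterocytes and Hopx in EECs had values in 2 and 1 libraries and were not tested.

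Genes of related pathways were tested in the same fit, and each list is given with its median log2 fold changes against Stem, in the order AbsPro, SecPDG, tuft cells, enterocytes and EECs, beside 0.04, -0.06, -0.09, -0.30 and -0.30 over all genes of at least 50 mean normalized counts. Of all genes tested, 0.496%, 3.38%, 7.83%, 10.7% and 10.8% were called higher in that order and 0.0922%, 1.6%, 4.23%, 11.5% and 9.14% lower, and a count near these shares is not a result about a list. The counts of the lists were taken again under the 4 other scalings, after seeing the data, and are given where they moved most. Of 10 further reserve stem cell genes (medians 0.17, 0.23, 0.97, 0.46 and 1.67), 1 rose in AbsPro, 3 rose in SecPDG, 3 rose and 1 fell in tuft cells, 3 rose and 1 fell in enterocytes and 4 rose and 1 fell in EECs. Under the other scalings the 4 risen in EECs became 6, the 3 in tuft cells 4 or 5 and the 3 in enterocytes 4. Dclk1, a tuft cell kinase, rose in tuft cells (log2 fold change 10.77, adjusted p = 5.03e-19), as did Prox1, a homeobox factor (log2 fold change 5.06, adjusted p = 1.69e-11), and the cyclin-dependent kinase inhibitor Cdkn1c (log2 fold change 5.30, adjusted p = 6.18e-15). The 10 genes of the crypt base stem cell (medians -1.19, -1.16, -1.21, -3.16 and -2.93) had 9 fallen in enterocytes as in EECs, 7 in SecPDG, 6 in tuft cells and 2 in AbsPro. Lgr5, the receptor for R-spondins, fell in enterocytes (log2 fold change -3.91, adjusted p = 1.45e-13), where Cd44, which was also used to sort the cells, fell as well (log2 fold change -4.86), and Cdca7 fell in EECs (log2 fold change -4.43, adjusted p = 7.86e-10). In tuft cells 1, Tnfrsf19, rose (chosen here after its value was seen), a call that DESeq2 did not make (adjusted p = 0.0214).

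Genes that touch each member's own pathway were taken next. Of 17 Polycomb repressive complex 1 genes besides Bmi1 (medians -0.17, -0.22, -0.36, -0.82 and -0.13), 0 were called in AbsPro, 7 fell in enterocytes, 1 in SecPDG and 2 in tuft cells, and 1 fell and 1 rose in EECs. The 7 in enterocytes became 1 or 2 under the other scalings. Rnf2, its ubiquitin ligase, fell in EECs (log2 fold change -2.20, adjusted p = 0.000453), and Pcgf6 (-1.55 on the log2 scale) and Cbx7 (-1.28) fell in tuft cells. Of the 2 targets of Polycomb listed (medians -0.27, 0.06, 1.77, 4.02 and 2.71), Cdkn2b rose in AbsPro (log2 fold change 3.25, adjusted p = 0.000416) and in enterocytes (log2 fold change 4.64, adjusted p = 1.64e-10).
Of 7 telomerase genes (medians -0.66, -0.56, -1.20, -1.86 and -2.37), 1 fell in SecPDG and 4 each in tuft cells, enterocytes and EECs, and none of them rose. In tuft cells the falls of Dkc1 (adjusted p = 0.0129) and Nhp2 (adjusted p = 0.0282) did not pass under DESeq2. That of Wrap53 did not pass there under DESeq2 size factors or upper quartile factors, nor in enterocytes under any other scaling. Nop10 in EECs did not pass under DESeq2 size factors (adjusted p = 0.0114). Gar1 (log2 fold change -1.58, adjusted p = 0.0031), Dkc1 (log2 fold change -3.26, adjusted p = 4.24e-06) and Nhp2 (log2 fold change -3.81, adjusted p = 3.18e-07), which bind the RNA of telomerase and of snoRNPs, fell in EECs, where Tert was not called; the fall of Gar1 did not pass under DESeq2 (adjusted p = 0.0167) or its size factors (adjusted p = 0.0293). Of 7 shelterin genes, which cap telomeres (medians -0.25, 0.05, -0.32, -1.07 and -0.90), Terf2 (-1.07), Tinf2 (-1.32) and Acd (-1.31 on the log2 scale) fell in enterocytes under TMM, and 0 of the 7 were called there under any of the other scalings.

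Of the 6 relatives of Lrig1, Msi1 and Mex3a (medians 0.13, -0.14, -0.21, -0.61 and 0.10), 2 fell in enterocytes, and in EECs 1 fell and 1 rose. Mex3d fell in enterocytes (log2 fold change -2.17, adjusted p = 9.43e-06), Lrig3 fell in EECs (log2 fold change -1.95, adjusted p = 0.000507) and Mex3b rose there (log2 fold change 2.21, adjusted p = 0.00391). Among 4 ErbB receptors, which Lrig1 restrains (medians 0.02, -0.43, -0.32, -0.02 and 0.09), Erbb2 fell in tuft cells (log2 fold change -1.59, adjusted p = 0.000121), and the other scalings added 2 of the list called higher in enterocytes, where TMM called 0. Of 5 Notch genes tied to Musashi proteins (medians -0.79, -1.88, -1.22, -0.97 and -0.53), 3 fell in enterocytes (1 under each other scaling), 3 in SecPDG, 3 in tuft cells and 2 in EECs, among them the receptor Notch1 in enterocytes (log2 fold change -2.81, adjusted p = 3.05e-10), the target Hes1 in EECs (log2 fold change -3.90, adjusted p = 1.86e-07) and Notch2 in SecPDG (log2 fold change -1.88, adjusted p = 0.000126).

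Of 12 injury-responsive genes, set beside Clu (medians 0.68, -0.20, 0.40, 2.43 and 1.56), 6 rose in enterocytes (7 to 9 under the other scalings), and in EECs 2 rose and 1 fell. The ErbB ligand Areg rose in enterocytes (log2 fold change 3.78, adjusted p = 1.07e-07), as did the interleukin 1 antagonist Il1rn (log2 fold change 2.76, adjusted p = 3.24e-07), while Anxa1 fell in EECs (log2 fold change -1.89, adjusted p = 0.00987, not called under any other scaling) and rose in enterocytes (log2 fold change 1.26, adjusted p = 0.00397). Of 13 genes of Yap and its targets (medians -0.36, 0.13, 0.11, -0.70 and 0.16), 1 rose in SecPDG, 2 rose and 4 fell in enterocytes, and 2 rose and 3 fell in EECs, and the enterocyte counts became 3 and 2 under the other scalings. Yap1 itself was at a log2 fold change of -1.44 in enterocytes, and Tead2 at -3.29 and Lats2 at 3.05 in EECs. All 10 proliferation genes (medians -0.80, -0.24, -1.22, -2.64 and -3.96) fell in enterocytes and in EECs and 6 fell in tuft cells, including Ccnb1 (-4.91), Ccna2 (-4.02) and Mcm6 (-3.86 on the log2 scale in EECs), and 0 were called in AbsPro or SecPDG.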

How the data were processed

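Total RNA of sorted colon crypt cells was sequenced by the authors, who deposited 1 table of read counts per gene for each of 22 libraries. Per the labels and the study's methods, reads were checked with FastQC 0.11.7, aligned to mm10 with STAR 2.5.2a, sorted with SAMtools 1.3 and counted with HTSeq 0.6.1p1 without regard to strand, so overlapping genes on opposite strands cannot be separated. The 5 entries that name no gene were left out and took up to 91.6% of a library (EEC 1). Replicates were separate mice or pools and separate sorts per the study's methods.

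Counts were scaled by TMM and fitted over all 22 libraries in edgeR 4.0.16 (R 4.3.3) with filterByExpr and a quasi-likelihood F test, and p-values were adjusted by Benjamini-Hochberg over 22781 genes. A call needed an adjusted p under 0.01 and a mean of 50 normalized counts. Of 5 forms of the quasi-likelihood fit that were run, the one with bias-adjusted deviances and no separate dispersion step was used, because it gave the whole-series counts of earlier processing of these data. This was settled after the calls of all 5 on the members had been seen, and the other 4 were added after seeing the data. DESeq2 1.42.0 was an alternative. Inclusion and skipping read counts per exon, deposited by the authors from rMATS, were tested as paired counts in edgeR for events of at least 10 mean counts. The fraction of distal polyadenylation site use, deposited by the authors from DaPars, was tested with limma 3.58.1 on log2 of the ratio of shares with a pseudocount of 0.01, for transcripts with a value in every library, both at an adjusted p under 0.05. Their depth is not given for the DaPars shares. The authors' own p-values, adjusted values and differences, and the MAJIQ tables, which list no member, were not used. Values of a list position in these tables could not be tied to a numbered library, and 0 columns belonged to unmatched samples.

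The 7 members and all gene lists were chosen with earlier results of these data known. All members are named in all cell types, with the 3 genes of highest Pearson r to each and, per list, at most 3 genes called in the most comparisons. One gene that this rule names for Bmi1, the sequence of the Tert promoter and that of the tested Lrig1 exon are not reported here. Scripts were tested on simulated data. Figures were drawn with matplotlib 3.10.9 in Python 3.11.15.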

Additional observations from a re-analysis of the deposited data

Results flagged for a closer look

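Msi1 in SecPDG 3 stood apart from the other 3 SecPDG libraries, at 34.5 normalized counts, with a gap to the nearest library of 0.838 of the range of the group. Clu in Enterocyte 5 stood below the other enterocyte libraries in the same way, with a gap of 0.763 of the range. Chance marks about 1 in 20 such groups, and 21 groups of members were examined.

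In 21 cases the change of a member against Stem differed between 2 cell types by edgeR's test of that difference, at an adjusted p under 0.01. These comparisons share libraries, and each value is the log2 difference of the cell type named first from the other. Msi1 differed by 5.02 between EECs and AbsPro, 3.69 between EECs and enterocytes, 2.95 between EECs and SecPDG, 4.28 between tuft cells and AbsPro, 2.22 between tuft cells and SecPDG and -2.95 between enterocytes and tuft cells. Its libraries lay below every Stem library in 3 of 3 AbsPro, 4 of 4 SecPDG and 5 of 5 enterocyte libraries and above in 2 of 2 EEC libraries, with the change in SecPDG not called against Stem (adjusted p = 0.173). Tert differed by 2.02 between EECs and AbsPro, 2.89 between EECs and SecPDG and 1.74 between enterocytes and SecPDG. Clu, which is under the minimum mean and so is not among these cases, differed by 2.92 between enterocytes and AbsPro (adjusted p = 0.00209 by the same test).

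Lrig1 differed by -1.72, -2.27 and -1.63 between enterocytes and, in that order, AbsPro, SecPDG and tuft cells, and by -2.44, -2.98 and -2.34 between EECs and the same types. Hopx differed by -1.31, -2.37 and -2.28 between enterocytes and, in that order, AbsPro, SecPDG and tuft cells. Mex3a differed by -1.67 between enterocytes and SecPDG, -2.56 between enterocytes and tuft cells and 1.96 between tuft cells and AbsPro.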

How the results depend on the processing

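The count of members called in tuft cells, 0 in the fit reported, was 1 under DESeq2, DESeq2 size factors, upper quartile factors and with the background taken off, 2 with library totals or with only the 2 cell types, and 3 at an adjusted p under 0.05. The replicate block, which pairs libraries of one number, called 1 there (Lrig1, adjusted p = 0.00859). Whether a shared number marks shared mice is not stated. Same-numbered libraries had a median r of deviations of 0.001965 (14 of 44 pairs over 0.1), and libraries of other numbers 0.00748 (46 of 154). In AbsPro the count of 2 became 3 with only the 2 cell types (Lrig1 added, adjusted p = 0.00835) and 1 in libraries thinned to the smallest and in edgeR's default form, in SecPDG the count of 1 became 0 in thinned libraries and in the default and both robust forms, and in EECs 2 became 1 in the default form and 3 with DESeq2 size factors (Bmi1 added) and at an adjusted p under 0.05 (Mex3a added). In enterocytes the count of 4 became 5 with no minimum mean (Clu added) and 3 when thinned, and under the 4 other scalings it stayed 4 with Clu called in place of Msi1. Under DESeq2 size factors the values in EECs were 2.56 for Msi1, -2.53 for Lrig1, 1.15 for Tert and 2.09 for Clu, and under DESeq2 those in enterocytes were -1.96 for Mex3a, 2.78 for Clu and -0.07 for Tert (-0.73 under TMM). The AbsPro count was 0 without Stem 1, Stem 3 or AbsPro 3. Leaving out 1 library gave 0 to 2 calls in AbsPro, 0 to 1 in tuft cells (1, Msi1, without Tuft 2 or Tuft 5) and 1 to 3 in EECs (1 without EEC 2, 3 without Stem 2), and the same count each time in SecPDG and enterocytes. For all 6 types DESeq2 used its likelihood ratio test. Over all genes, the default form called 83 (AbsPro), 3082 (enterocytes), 3197 (EECs), 707 (SecPDG) and 1468 (tuft cells), against 134, 5060, 4541, 1134 and 2748, and the robust form 88, 3108, 3217, 691 and 1424. DESeq2 called 441 in AbsPro and 1877 in SecPDG, and fits of only 2 cell types 455 in AbsPro, 2191 in SecPDG and 1429 in EECs. In AbsPro DESeq2 size factors gave 229, library totals 213, upper quartile factors 208, the replicate block 209 and an adjusted p under 0.05 272. SecPDG had 1880 with library totals and 1712 at that p, tuft cells 4486 at that p and 1765 when thinned, enterocytes 3343 when thinned, and with no minimum mean enterocytes had 10016, EECs 7664 and the 6 types together 13897 against 7656. Without Stem or AbsPro libraries in turn the AbsPro count ranged from 53 to 164. Direction turned for log2 fold changes near 0: DESeq2 (Mex3a in Tuft 0.18), DESeq2 size factors (Mex3a in Tuft 0.16), library totals (Hopx in SecPDG -0.047, Mex3a in Tuft 0.016), upper quartile factors (Mex3a in Tuft 0.15), no filter on low counts (Bmi1 in SecPDG 0.0032, Hopx in Tuft -0.030), thinned to the smallest library (Bmi1 in AbsPro 0.061, Bmi1 in SecPDG 0.062, Mex3a in Tuft 0.047), background taken off (Bmi1 in AbsPro 0.014, Bmi1 in SecPDG 0.0055, Mex3a in Tuft 0.0062), replicate block (Bmi1 in AbsPro 0.055, Hopx in Tuft -0.14, Mex3a in Tuft 0.059), only the 2 cell types (Bmi1 in SecPDG 0.011), estimateDisp and default glmQLFit (Bmi1 in AbsPro 0.00089), robust glmQLFit (Bmi1 in AbsPro 0.00089), robust estimateDisp and glmQLFit (Bmi1 in AbsPro 0.00089). Leaving out 1 library gave a range across 0 for Bmi1 in AbsPro (-0.35 to 0.34), SecPDG (-0.39 to 0.33), tuft cells (-0.10 to 0.56) and EECs (-0.56 to 1.05), Hopx (-0.037 to 0.15) and Mex3a (-0.24 to 0.082) in tuft cells, Clu in SecPDG (-0.20 to 0.88) and Tert in EECs (-0.29 to 0.90). For distal site use it gave Hopx -0.62 to 0.27 in tuft cells, -0.73 to 0.16 in SecPDG and -0.96 to 0.24 in AbsPro, and Lrig1 -0.26 to 0.84 in SecPDG. The cause was not tested. With 2 EEC libraries, and low counts of Clu and Tert, a member that did not pass cannot be read as equal.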
